A study of Drosophila melanogaster with 3 samples.

Results

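Binding of Elba2 was described here at 8 genes, 7 of them with roles in the repression, localisation or clearance of maternal messenger RNAs in the fly egg and early embryo, out of 13968 protein-coding genes annotated on the chromosome arms used. The 8 genes are smg, CG5087, pum, cup, tral, me31B, twin and osk. They were chosen by name from earlier results of the same peak lists, in which smg and its neighbour CG5087 shared one of the strongest peaks. CG5087 is included for that shared peak, and no role is given for it here. Since these peaks chose them, the values of the 8 genes are a description and carry no test. Elba2 is a DNA-binding BEN-domain protein of the ELBA complex, which binds insulator DNA in Drosophila embryos. The material was whole embryos of both sexes, aged 0 to 4 h, from a stable transgenic line of strain label CG9883-GFP that carries Elba2 with a green fluorescent protein tag at its C terminus. An antibody to the tag pulled down sonicated chromatin of 200 to 800 bp. The 3 samples are biological replicates of this 1 group, with no second genotype, age or treatment.

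Bulk chromatin from whole embryos cannot separate a site bound in few cells from one bound weakly in many. The authors' lists held 29295, 30000 and 30000 regions for replicates 1, 2 and 3 and 28496 regions for the 3 replicates pooled. Their optimal set, which passed a test of irreproducible discovery rate (IDR), held 3276 peaks. It was exactly the 3276 strongest pooled regions, with signal values between 109 and 1355. The signal value is the authors' own number per region, of unstated scale, and is compared below only within a list. Read counts were not used, so the depth behind each region is unknown. Below, "bound" stands for a gene with an optimal summit no more than 500 bp from any transcription start site (TSS) in its annotation.

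The fly egg is loaded with messenger RNAs during oogenesis, and the embryo develops from them before its own genome is widely transcribed. Smaug, the product of smg, is an RNA-binding repressor that recruits the CCR4-NOT deadenylase to maternal messages, and Pumilio is an RNA-binding repressor that acts with Nanos and Brat. Cup binds the cap-binding protein eIF4E, Trailer hitch and the helicase Me31B are core proteins of the repressed ribonucleoprotein particles, and Twin is the Ccr4 deadenylase. Oskar organises the pole plasm, and its message is held repressed while it travels to the posterior pole.

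Among these 8 genes, 4 were bound, namely smg, CG5087, tral and pum, through 3 peaks. Among all protein-coding genes the share was 17.9% (2495 of 13968). The signal values of the 3 peaks were far apart. The smg and CG5087 peak had a signal of 937, the tral peak 189 and the pum peak 110. The median over all 1927 optimal peaks at protein-coding TSSs was 165, so tral lay a little above it and pum close to the lowest value of the set. The other 4 genes, cup, me31B, twin and osk, had no optimal summit within 500 bp of a TSS.

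The sequences below are shown because they lie at the peaks that the results turn on. The first is the whole stretch between the divergent starts of smg and CG5087, at chr3L:8997990-8998183 on build dm6, 194 bases on the plus strand. The second holds 30 bases at chr3L:8998217-8998246, plus strand, around the palindrome of the BEN-domain protein Insensitive, in the 5′ untranslated region of CG5087. The third is the whole stretch between the divergent starts of sti and tral, at chr3L:12514816-12515058, 243 bases on the plus strand. The fourth is the upstream side of the pum promoter peak, at chr3R:9237683-9237886, 204 bases on the minus strand, which is the strand of pum. The fifth is the centre of an intronic pum peak, at chr3R:9236161-9236361, 201 bases on the minus strand. Each is written 5′ to 3′ in the Release 6 genome. Capitals mark the Insensitive palindrome in the second, the site of the promoter factor M1BP in the fourth and both copies of the ELBA site in the fifth. The first and the third hold none of the 6 words searched. The fifth was marked for the ELBA site and the palindrome alone. It also holds GAGAGAG, another of the 6 words, which is left in lower case and reads as ctctctc on the printed strand.
smg-CG5087 interval: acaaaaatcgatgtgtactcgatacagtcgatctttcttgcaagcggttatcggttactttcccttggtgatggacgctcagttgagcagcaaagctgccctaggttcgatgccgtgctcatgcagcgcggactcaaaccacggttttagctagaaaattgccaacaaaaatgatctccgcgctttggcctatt
CG5087 palindrome: acactgtaccaCCAATTGGaacaaaataag
sti-tral interval: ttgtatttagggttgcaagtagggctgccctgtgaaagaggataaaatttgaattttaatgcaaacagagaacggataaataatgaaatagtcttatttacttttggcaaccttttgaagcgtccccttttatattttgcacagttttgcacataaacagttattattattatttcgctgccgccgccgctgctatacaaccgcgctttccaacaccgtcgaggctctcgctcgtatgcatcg
pum upstream: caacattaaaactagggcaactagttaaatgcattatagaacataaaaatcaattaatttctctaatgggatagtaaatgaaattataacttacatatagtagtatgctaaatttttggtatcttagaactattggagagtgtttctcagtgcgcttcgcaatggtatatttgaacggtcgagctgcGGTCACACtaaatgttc
pum intronic peak: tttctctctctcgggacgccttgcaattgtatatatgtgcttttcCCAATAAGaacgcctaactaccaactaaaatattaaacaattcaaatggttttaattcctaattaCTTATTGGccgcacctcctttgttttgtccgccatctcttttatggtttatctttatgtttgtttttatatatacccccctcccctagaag

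The promoter peaks of the RNA-binding repressor genes smg and pum stood at opposite ends of the optimal set. The peak shared by smg and CG5087 covered 371 bp at chr3L:8997972-8998342 and ranked 5 of the 3276 optimal peaks. In replicates 1, 2 and 3 it ranked 5, 8 and 4, with signal values of 407, 269 and 277. It was thus among the strongest regions of every replicate. Its summit, at 8998189, lay 5 bp inside CG5087 and 200 bp upstream of the most upstream smg TSS at 8997989. The summits in replicates 1, 2 and 3 lay at 8998162, 8998187 and 8998199, a spread of 37 bp that still leaves them nearer to the CG5087 start. With fragments of 200 bp and more and starts 194 bases apart, the peak cannot be assigned to one of the 2 genes.

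The gene smg has 5 annotated TSSs, and the optimal and pooled lists held regions at the most upstream one alone. Besides the shared peak, a weaker pooled region outside the optimal set had its summit 402 bp upstream of that TSS and 207 bp inside CG5087. Its signal was 91.6 at rank 4413. Replicates 1 and 2 listed such a second region at ranks 4685 and 596, and replicate 3 listed no separate one. In the replicate lists weak regions also lay within 500 bp of internal smg starts, at best at rank 18246 in replicate 1, 22230 in replicate 2 and 18145 in replicate 3. The pooled list held 11 regions in smg or within 5 kb of it, and all but the shared peak were outside the optimal set. CG5087 had 7 pooled regions on the same count, and the shared peak was again the single optimal one.

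The palindrome printed above starts 44 bases downstream of the CG5087 start, and its centre lay 42.5 bp from the optimal summit. Such a palindrome lay within 100 bp of the summit in 1 of the 3 peaks at the 8 genes. It did so in 9.16% of all optimal peaks, in 7.63% of the optimal peaks at protein-coding TSSs, and in 0.7% of 19275 windows of 201 bases centred on protein-coding TSSs. The palindrome is also a sequence that BEN-domain proteins other than Elba2 bind.

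The pum promoter peak was the weakest of the 3. It covered 424 bp at chr3R:9237463-9237886, with its summit at 9237675, 7 bp inside the gene from the most upstream of 4 TSSs at 9237682. It ranked 3249 of 3276 in the optimal set, and 5136, 3848 and 2777 in replicates 1, 2 and 3, with signal values of 38.5, 34.4 and 32.6. Of the 3 replicates, only replicate 3 had it among its 3276 strongest regions. With these ranks, the call had to be lost when any 1 replicate was left out and only summits shared by the 3276 strongest regions of the other pair were counted. It had to be lost too when the optimal set was cut to its strongest 1638 peaks. These settings therefore restate the ranks and are no further check.

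The M1BP site, GGTCACAC, was found 10 bases upstream of the pum start, with its centre 20.5 bp from the summit. It lay within 100 bp of the summit in 10.6% of the optimal peaks at protein-coding TSSs, and in 5.68% of the TSS windows. Of the other 3 pum TSSs, those at 9237025 and 9157950 had pooled regions with signal values of 53.9 and 70.8, at ranks 12000 and 7062. The TSS at 9226840 had none within 500 bp.

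**Figure D1:**
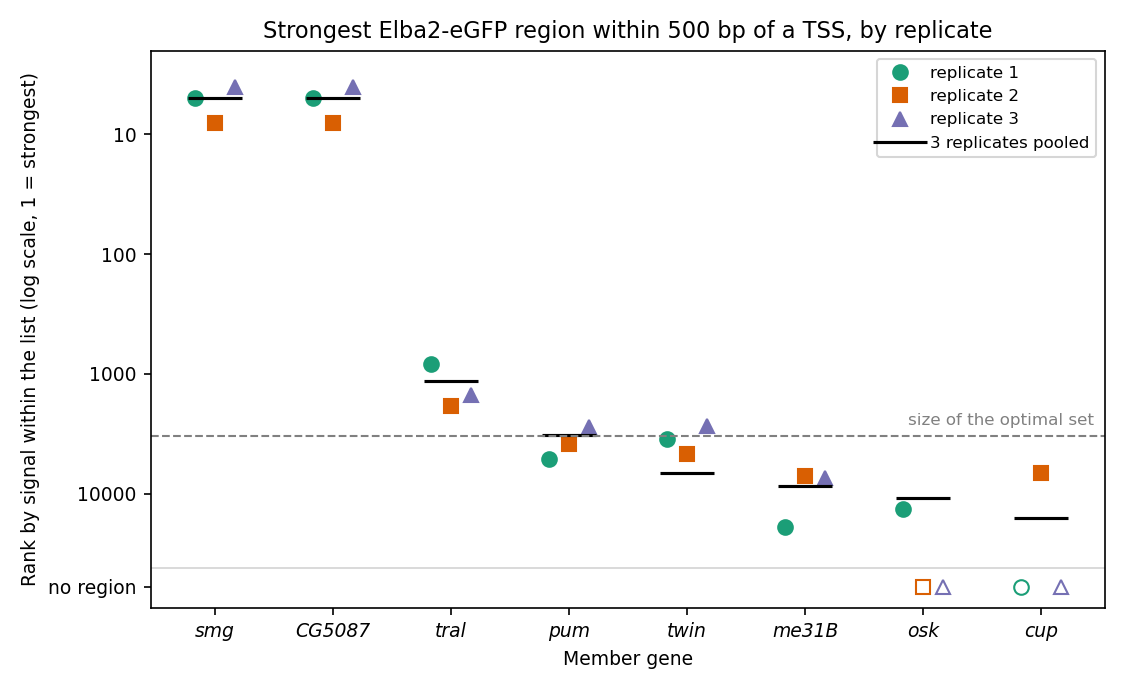
Rank by the authors' signal (log scale, 1 is the strongest) of the strongest region within 500 bp of a TSS of each of the 8 genes, for replicates 1, 2 and 3 and, as a bar, for the pooled list. The dashed line marks rank 3276, the size of the optimal set, and open symbols stand for no region. The smg and CG5087 symbols lie between ranks 4 and 8, tral between 826 and 1838, and no replicate symbol of me31B, osk or cup lies above the line.

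Inside pum, which spans 171 kb, 3 further optimal peaks had stronger signals than the promoter peak. The peak at chr3R:9220449-9220872 had a signal of 282 and ranked 456, and it ranked 384, 1077 and 394 in replicates 1, 2 and 3. The peak at chr3R:9228112-9228535 had a signal of 211 and ranked 887, and 1571, 742 and 714 in the replicates. Its summit was 191 bp from the start of the noncoding gene lncRNA:CR45196. All 3 intronic peaks were among the 3276 strongest regions of every replicate, whereas the promoter peak was not.

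The remaining intronic peak of pum, at chr3R:9236049-9236472, had a signal of 206 and ranked 948, and 1475, 415 and 1150 in the replicates. It is the one whose centre is printed above, with 2 ELBA sites in opposite orientations whose starts are 65 bases apart. Their centres lay 13.5 and 51.5 bp from the optimal summit. The summits in replicates 1, 2 and 3 lay at 9236232, 9236358 and 9236332, a spread of 126 bp, so these distances are approximate. The ELBA site, CCAATAAG on either strand, lay within 100 bp of the summit in 6.9% of all optimal peaks and in 0.576% of the TSS windows. This pum peak is intronic, with its summit 764 bp from the nearest TSS, so those windows are not a like background for it. Of the 11 optimal peaks in or within 5 kb of the 8 genes, it alone held the site. No promoter peak of the 8 genes held the site.

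Per length, pum held about as many optimal peaks as the chromosome arms. There were 4 in its body, or 0.233 per 10 kb, against 0.238 per 10 kb of the arms. Over the 87 protein-coding genes of 100 kb or more, pum included, the median was 0.0703 per 10 kb, with a range of 0 to 0.722. Of these 87 genes, 23 were bound at a TSS.

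**Figure D2:**
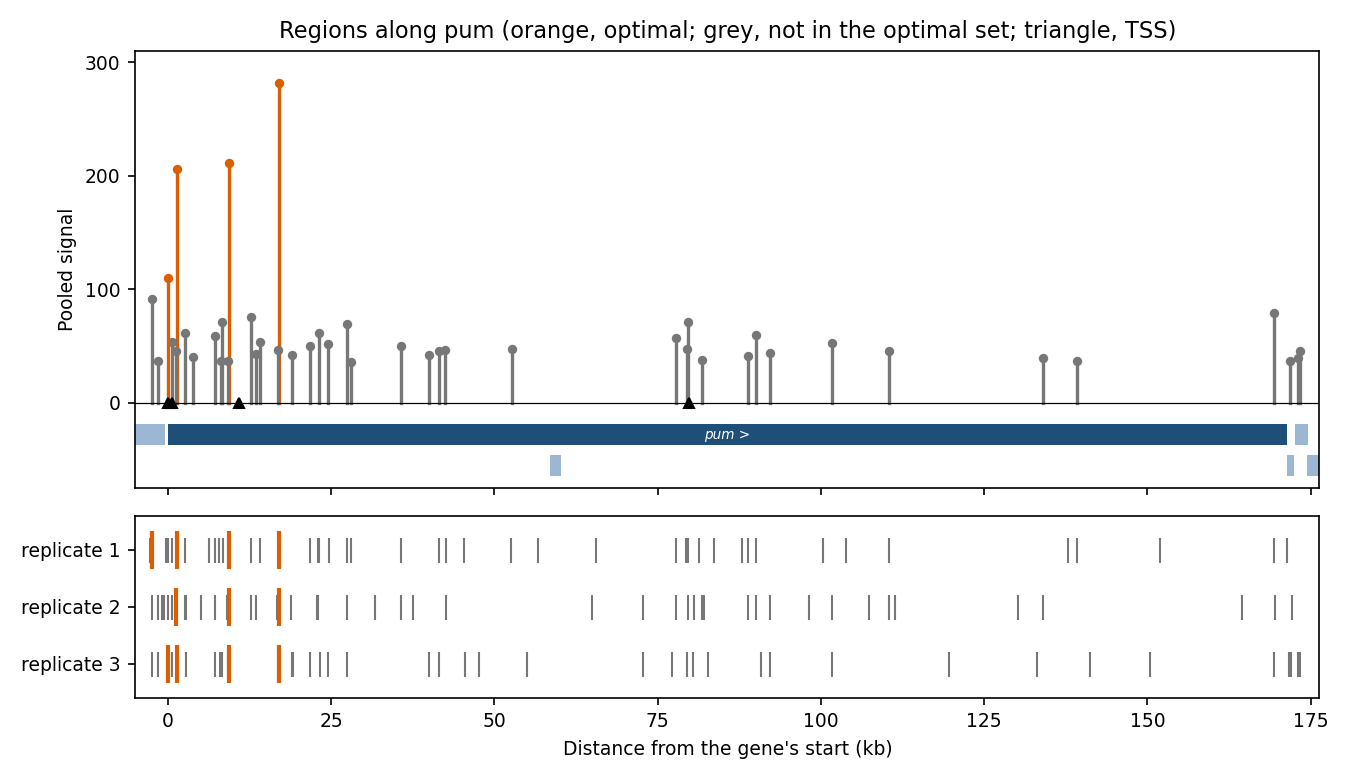
Regions along pum, by distance in kb from its most upstream start. Upper panel, signal of pooled regions, with those of the optimal set in orange, others in grey, and TSSs as triangles over the gene. Lower panel, region positions in replicates 1, 2 and 3, with those among the 3276 strongest of the replicate in orange. The optimal peaks all lie in the first 20 kb, and the 3 intronic ones rise above the promoter peak.

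The translation repressor gene cup, whose product binds eIF4E, was not bound. Its strongest pooled region at a TSS had a signal of 47.3 and ranked 15934, with its summit 98 bp from the start. Replicate 2 had a region within 500 bp at rank 6720, and replicates 1 and 3 had none. The body of cup held an optimal peak with a signal of 123, at chr2L:6673668-6674091, which ranked 2222 in replicate 1 and 1812 in replicate 2. In replicate 3 no summit lay within 200 bp, and the region that overlapped the peak ranked 13100 with its summit 313 bp away. The optimal summit was 9912 bp from the nearest cup TSS and 84 bp from a start of CG34310, a gene annotated on the same strand over the same stretch. Downstream of cup, 2860 bp past its end, a peak at chr2L:6677567-6677714 had a signal of 273 and ranked 712, 414 and 579 in the replicates. It lay 15 bp from the start of Nse1, a subunit gene of the SMC5/6 complex, and held an M1BP site 16.5 bp from its summit.

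Of the genes of the repressed particle, tral was bound and me31B was not. The tral peak lay at chr3L:12514622-12515045 and ranked 1149, and 826, 1838 and 1501 in replicates 1, 2 and 3, with signal values of 99.7, 49.8 and 43.9. It was among the 3276 strongest regions of every replicate. Its summit, at 12514834, lay 225 bp upstream of the single tral TSS and 19 bp from the start of sti, which encodes the citron kinase of cytokinesis. It also fell in an exon of the noncoding gene lncRNA:CR45168. The summits in replicates 1, 2 and 3 lay 219, 235 and 144 bp upstream of the tral TSS. A weaker pooled region, outside the optimal set, had its summit 14 bp upstream of that TSS, with a signal of 71.5 at rank 6911. As with smg, the starts are divergent and too close for the fragments to separate. None of the 6 words lay in the optimal peak. A second optimal peak, 3285 bp past the end of tral, had a signal of 125 and lay between the divergent starts of ver and Gcn5. It ranked 2504 in replicate 1 and 2110 in replicate 2. In replicate 3 no summit lay within the 200 bp taken as the same site, and the region that overlapped the peak ranked 3605 with its summit 262 bp away.

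The helicase gene me31B had a pooled region 290 bp from a TSS with a signal of 63.7, at rank 8633. The strongest regions within 500 bp of either of its TSSs ranked 18893, 7108 and 7460 in replicates 1, 2 and 3, all outside the strongest 3276. The nearest optimal peak was stronger than that of tral but lay 3199 bp upstream of me31B, in a stretch that is coding in some transcripts of mthl15, a gene of the methuselah-like receptor family. It had a signal of 265 and ranked 541, and 615, 1013 and 242 in the replicates.

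The deadenylase gene twin came closest to the limit of the optimal set without passing it. Its strongest pooled region at a TSS had a signal of 72.8 at rank 6696. Just inside the limit stood pum, with 110 at rank 3249. At its starts twin had regions at rank 3477 in replicate 1, 4684 in replicate 2 and 2732 in replicate 3. These are the strongest within 500 bp of any of its 4 TSSs and do not all mark the same one. The pooled region also lay within 500 bp of a start of cav, which encodes a telomere-capping protein. Downstream of twin, 3353 bp past its end, an optimal peak with a signal of 207 lay at the divergent starts of SMC6 and CG6204. It ranked 1009, 1127 and 926 in the replicates and held an M1BP site 80.5 bp from its summit.

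The pole plasm gene osk was the one gene of the 8 with no optimal peak in its body or within 5 kb. Optimal summits lay in or within 5 kb of 7 of the 8 genes, and of 43.8% of all protein-coding genes. Of the 11 peaks counted there, 7 lay at a TSS of some protein-coding gene, as did 58.8% of all optimal peaks. The pooled region nearest the osk start had a signal of 56.4 at rank 10903 and lay 414 bp upstream, in an exon of asRNA:CR44020. Replicate 1 had a region there at rank 13436, the nearest in replicate 3 lay 502 bp from the start at rank 13084, and replicate 2 had none. The strongest pooled region near osk, with a signal of 92.5 at rank 4347, lay 2280 bp upstream, and the body of osk held no pooled region.

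**Figure D3:**
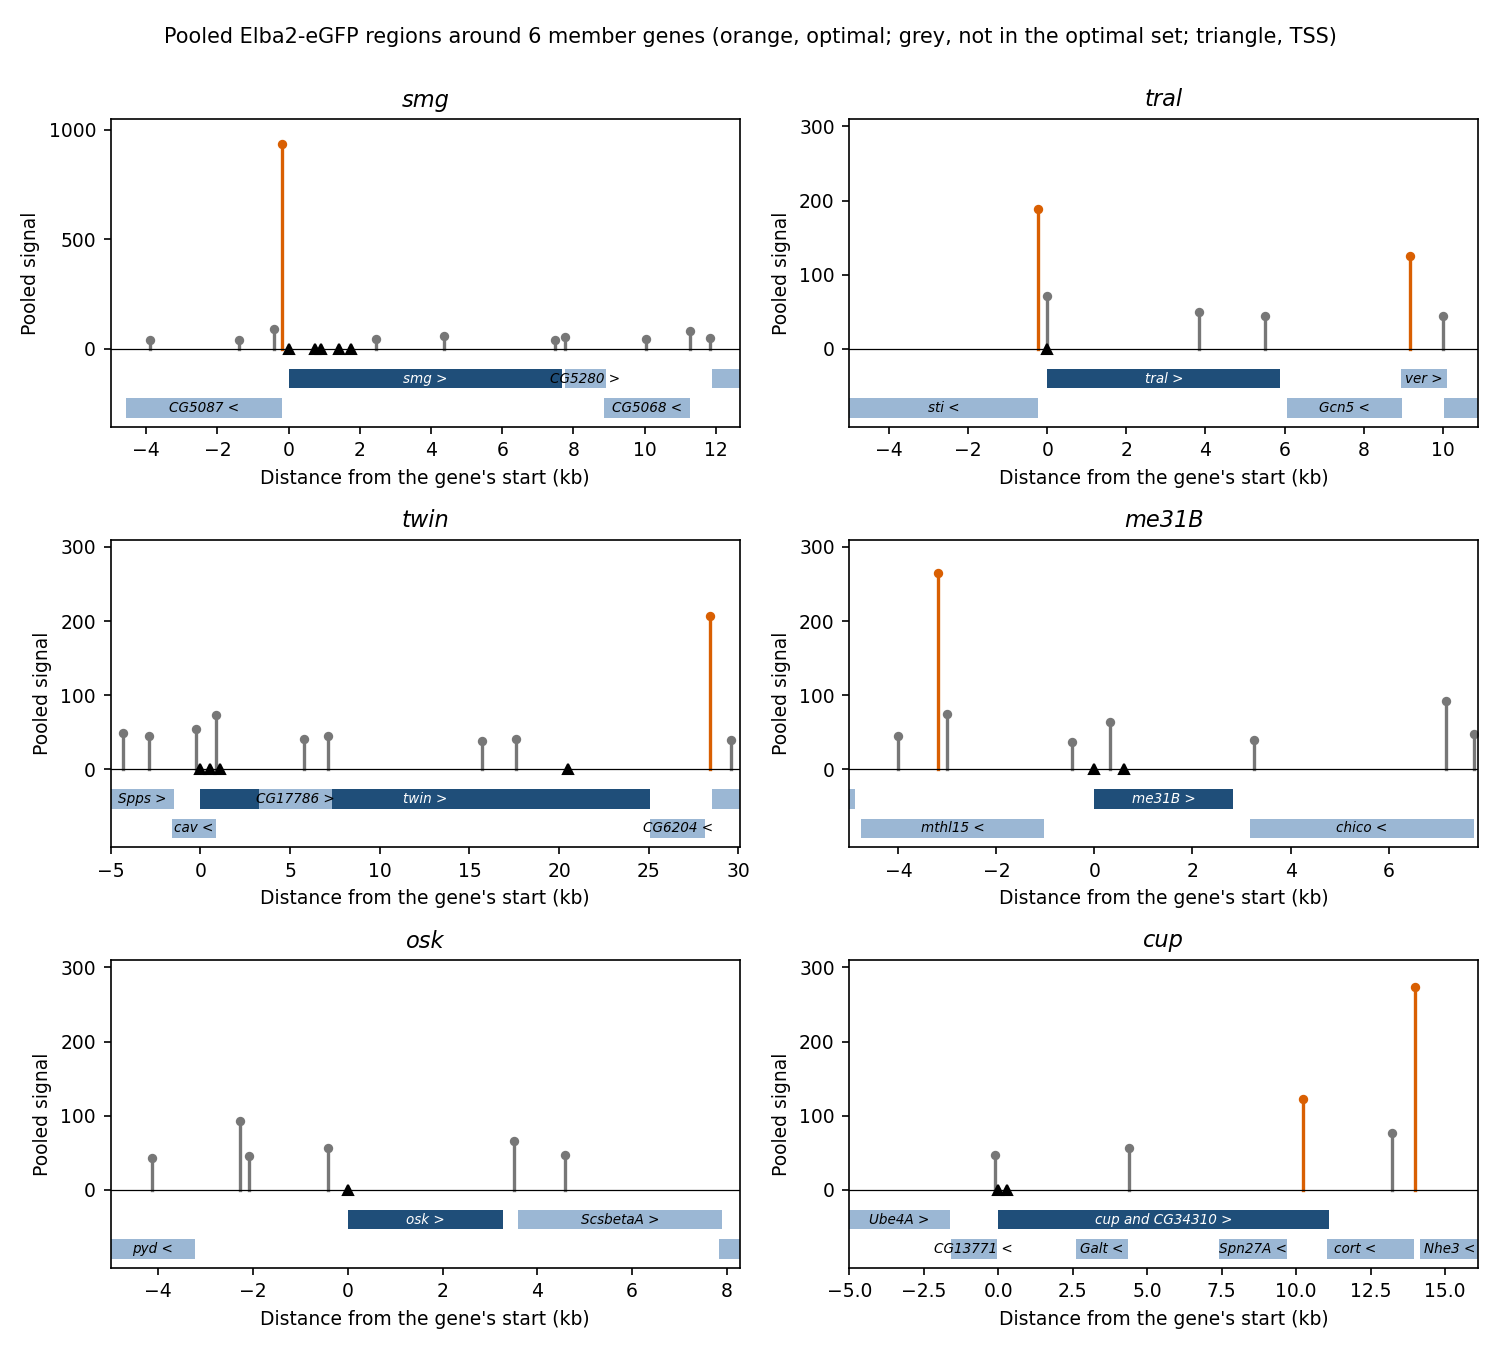
Pooled regions around smg, tral, twin, me31B, osk and cup, by distance in kb from the gene's most upstream start, in the direction of the gene. The vertical axis is the authors' pooled signal, with its own scale for smg. Regions of the optimal set are orange, others grey, and triangles are TSSs. Optimal peaks stand at the starts of smg and tral, and at a distance from the starts of twin, me31B and cup.

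The permissive lists were less selective. All 8 genes had a pooled region within 500 bp of a TSS, as did 53.2% of all protein-coding genes. In the lists of replicates 1, 2 and 3, the genes with such a region numbered 7, 7 and 6 of the 8, beside 53.8%, 50.9% and 51.5% of all protein-coding genes. The missing ones were cup in replicate 1, osk in replicate 2 and both in replicate 3. Among the 3276 strongest regions of each replicate, smg, CG5087 and tral had one at a TSS in all 3 replicates. No other gene of the 8 did in replicate 1, where 18.7% of all protein-coding genes had one, or in replicate 2, where 17.4% did. In replicate 3, where 16.0% of all genes did, pum and twin had one too.

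**Figure D4:**
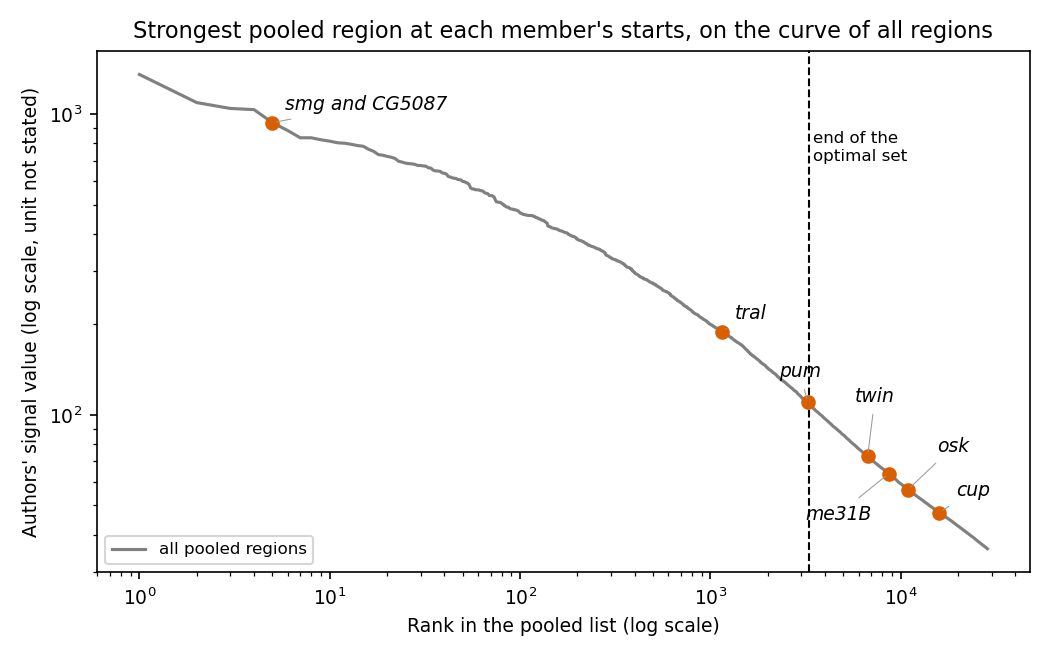
Signal against rank for all 28496 pooled regions (grey line, both axes on a log scale), with the strongest region within 500 bp of a TSS of each of the 8 genes as a point. The dashed line is the end of the optimal set. The point of smg and CG5087 is at rank 5, tral at 1149 and pum at 3249, and twin, me31B, osk and cup lie beyond the line in that order.

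The 3 promoter peaks differed in base composition. The GC content of the peak was 46.4% for smg and CG5087, 43.2% for tral and 34.2% for pum. The median of the 1927 optimal peaks at protein-coding TSSs was 39.8%, and their 5th and 95th percentiles were 31.2% and 50.5%. Of the 3 peaks, 2 lay at divergent starts of protein-coding genes, and of the 1927 peaks 744 did, or 38.6%. Among 1864 promoter peaks with a region in all 3 replicates, those nearest to the smg peak in their ranks were at alc, ACC and ben. Their summed differences in log10 rank over the 3 replicates were 0.472, 0.699 and 1.02. Those nearest to the pum peak were at nxf2, Adk3 and bru2, with sums of 0.0645, 0.0682 and 0.12.

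A wider list of 52 genes with roles in maternal message repression, localisation and decay was read in the same way. Of these, 21 were bound (40.4%), beside 17.9% of all protein-coding genes. The list was written with earlier results of these data known, so its shares are a description. The groups by role below are small, and the same 17.9% stands beside each. Pooled regions lay at a TSS of 46 of the 52 genes. Counted among such genes alone, 21 of 46 were bound (45.7%), and 2495 of 7432 protein-coding genes were (33.6%). The signals of the 21 genes' peaks ran from 110 to 349 with a median of 186, so that none reached the 937 of smg. In 13 of the 21 the peak was among the 3276 strongest regions of every replicate, as were 58.2% of the 1927 optimal peaks at protein-coding TSSs. For 12 of the 21 genes the peak lay at the TSS of another protein-coding gene too. Of the 1927 peaks, 42.7% lay at TSSs of 2 or more such genes. The first share counts genes and the second counts peaks. A shared peak weighs more in a count by gene, so these shares are not comparable.

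Among the other RNA-binding repressors, 6 of 11 were bound. The highest signals were 247 at orb, which encodes a cytoplasmic polyadenylation element binding protein, 221 at brat, a partner of Pumilio, and 213 at Fmr1, the fragile X protein gene. Unbound genes of this group included BicC and Hrb27C. Of the cap-binding and poly(A) factors 2 of 5 were bound, the cap-binding protein genes eIF4E1 with 219 and eIF4EHP with 211, and Thor and pAbp were not. The eIF4EHP peak ranked 420 and 981 in replicates 1 and 2 but 17951 in replicate 3.

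Of the particle and decapping genes 5 of 10 were bound. The highest signals were 178 at pcm, the gene of the cytoplasmic 5′ exonuclease, 166 at Edc3, an enhancer of decapping, and 158 at LSm1. The decapping enzyme gene DCP2 and exu were not bound. Of the genes grouped with the deadenylases, which do not all encode such enzymes, 3 of 10 were bound, twin aside. The signals were 349 at Cnot4, 217 at PAN3 and 186 at Not1, the scaffold of the complex that holds the Twin deadenylase. Not10 and Not11 were not bound.

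None of the 7 genes of oskar localisation and pole plasm was bound, aub and capu among them, and osk itself was not. Pooled regions lay at a TSS of 5 of these 7. In the group of the egg activation kinase and the CTLH ubiquitin ligase, 3 of 6 were bound. The signals were 224 at gnu and 164 at plu, which encode subunits of the Pan Gu kinase, and 115 at muskelin, and png and RanBPM were not bound. Of the microRNA effectors AGO1 was bound with 142 and gw was not. Hsp83, whose message is a target of Smaug, was bound with 196.

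The ELBA site lay within 100 bp of the summit at 3 of the 21 bound genes, orb, Fmr1 and Edc3, and in 4.77% of the 1927 optimal peaks at protein-coding TSSs. The Insensitive palindrome did so at 2, brat and Cnot4, and in 7.63% of those peaks. The M1BP site did so at 2, DCP1 and pcm, and in 10.6%, and GAGAGAG at 2, Fmr1 and Imp, and in 3.84%. TATCGATA and CCAATAGG lay at none of the 21, and in 8.51% and 2.49% of those peaks.

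**Figure D5:**
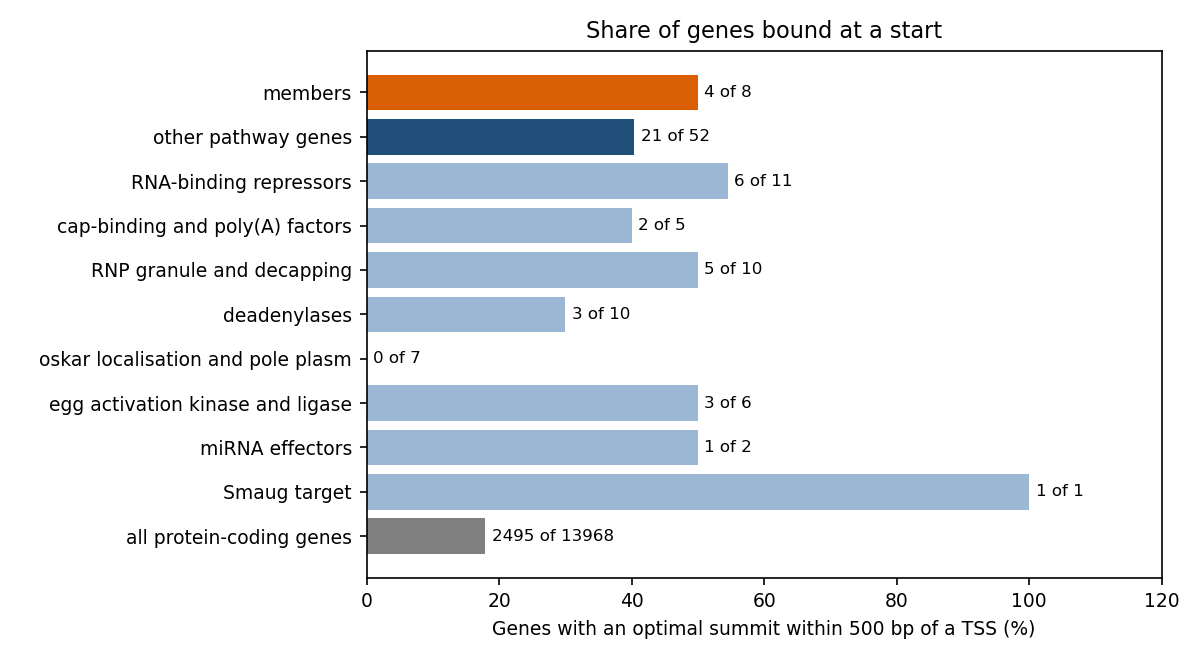
Percentage of genes with an optimal summit within 500 bp of a TSS, for the 8 genes described (orange), the 52 further genes together (dark blue) and by role (light blue), and all protein-coding genes (grey), with the counts beside each bar. The bars read 4 of 8 for the genes described, 21 of 52 for the further genes and 2495 of 13968 for all. The 8 genes were chosen from these peaks, smg and CG5087 share a peak, and the 52 were listed with earlier results known. Their bars are a description and not a test.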

How the data were processed

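Chromatin immunoprecipitation and sequencing of Elba2-eGFP embryos was analysed from the authors' deposited narrowPeak lists on build dm6. Per the file headers and notes deposited with them, permissive regions came from each replicate and from the 3 pooled, called against a control, and IDR gave the optimal set. The signal value and the summit offset are those the authors deposited. The sources used here do not give the aligner, the peak caller, the IDR threshold or the scale of the signal. The control library and the dm3 lists were not used here. Regions have a nearly fixed width, with a median of 424 bp, and 92.6% of optimal summits lie at the region's centre, which limits how finely a summit marks a contact.

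TSSs, genes and sequences came from the Release 6 genome with Ensembl release 115 (FlyBase 6.54). Regions were ranked by signal within each list with python 3.11.15, pandas 2.3.3 and numpy 2.4.6. A replicate region within 200 bp of an optimal summit was taken as the same site. Replicates were compared at their 3276 strongest regions. The 6 words were the ELBA site CCAATAAG, the Insensitive palindrome CCAATTGG, the M1BP site GGTCACAC, TATCGATA, CCAATAGG and GAGAGAG, each looked for on either strand at most 100 bp away from a summit. The words that begin with CCAAT differ in their last letters and were counted separately, and a longer run of GAGAGAG can match more than once. The counting functions were tested on simulated data. With 1 group and no replicated count, no test was run.

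The 8 genes, the 59 symbols of the wider list (7 of them among the 8) and the words were chosen with earlier results of these data known. All 59 matched, 4 through a current symbol. Genes were named by a rule. It took the 8 genes, genes with a TSS within 500 bp of their peaks, up to 3 bound genes by signal and up to 2 unbound genes in alphabetical order per role, and the 3 peaks nearest in rank to the smg and pum peaks. Genes named beside a word, and those whose body or exon holds a peak, fall outside it and were chosen with their values known. Other settings changed the distance, the TSS set, the peak set and the word window, and left out each replicate.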

Additional observations from a re-analysis of the deposited data

How the results depend on the processing

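Of 104 values recomputed under other settings, 94 were unchanged or within 1.5 times. Most of the 104 were yes or no calls for single genes among the 8. A stricter setting cannot turn an unbound gene into a bound gene, so many of these calls could not change. The 94 is therefore no measure of how stable the results are. The share of all protein-coding genes bound, 17.9%, moved to 10.02% with the stronger 1638 optimal peaks and to 10.7% with the 1844 optimal peaks also among the strongest regions of every replicate. Leaving out 1 replicate at a time kept only summits shared by the 3276 strongest regions of the other pair. That left 2114, 2165 and 2366 regions without replicates 1, 2 and 3, and shares between 11.6% and 13.8%. These sets are smaller than the optimal set, so the lower shares do not measure dependence on a replicate. The 3276 strongest regions of replicates 1, 2 and 3 alone gave 18.7%, 17.4% and 16.0%. With the 1844 peaks, 13 genes of the wider list were bound, against 21 in the full set. The smaller shared sets without 1 replicate gave 14 to 16. Among the 8 genes, the count was 4 under the other distances and by overlap. It was 3 with the stronger peaks, with peaks in all replicates, without each replicate and at the start of the longest transcript only, each time through the loss of pum. Apart from the longest transcript setting, that loss was fixed in advance by the ranks of the pum peak. Pooled regions lay at a TSS of 6 of the 8 genes within 250 bp, where 42.1% of all protein-coding genes had one, and of 8 within 1000 bp, where 62.1% did. The number of promoter peaks with an ELBA site or a palindrome was 1 under each window tried, and the other words were not recounted. Depth is unknown, so whether cup, me31B, twin and osk lack binding or fall short of the limit at this depth cannot be told apart.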

Other observations

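All 4 optimal peaks in pum lay in the first 20 kb of the gene, which is 11.7% of its length, and 17 of its 39 pooled regions (43.6%) did. In replicates 1, 2 and 3 that stretch held 12 of 40, 14 of 40 and 12 of 34 regions. The length of 20 kb was chosen after the map was seen, and no test was run.

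Of the 4 optimal peaks in or near genes that were not bound themselves, 1 lay at the start of Nse1, downstream of cup, and 1 between the divergent starts of SMC6 and CG6204, downstream of twin. Nse1 and SMC6 encode subunits of the SMC5/6 complex, and both peaks held an M1BP site within 100 bp of the summit. The other two, at a start of CG34310 inside cup and in mthl15 upstream of me31B, held none of the 6 words. The M1BP site lay within 100 bp of the summit in 10.6% of the optimal peaks at protein-coding TSSs and in 6.72% of all optimal peaks. Other genes of the SMC5/6 complex were not read. The pairing of Nse1 and SMC6 was noticed after the peaks were seen and was not tested.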
